A study of Mus musculus with 6 samples.

Results

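The genes described here are 10 components of bone morphogenetic protein (BMP) signalling, followed in mouse embryonic stem cells in which the Wnt pathway factor Lef1 was induced. They were chosen by name: the ligand genes Bmp2, Bmp4 and Bmp7, the receptor gene Bmpr1a, the pseudoreceptor gene Bambi, the target genes Id1, Id2 and Id3, and the inhibitory Smad genes Smad6 and Smad7. All 10 have a row of their own among the 36699 rows of the authors' deposited table, no row joins several genes, and all 10 are among the 18114 rows the authors tested. RNA sequencing of polyadenylated RNA was done on day 3 of embryoid body culture, in which stem cells taken off a feeder layer of mouse embryonic fibroblasts aggregate in suspension and begin to differentiate. In the plus_Dox group (3 libraries, numbered 1, 2 and 3) A2Lox.cre cells received doxycycline for 24 h from day 2 to induce Flag-Lef1. In the minus_Dox group (3 libraries, numbered 1, 3 and 4) the same cells, with the same transgene, received none. Both groups thus share the inducible construct and its cell line, and no library received doxycycline without the transgene. The comparison addressed which genes respond to induced Lef1.

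BMP ligands are secreted proteins of the TGF-beta superfamily that bind type I and type II receptor kinases. The activated type I receptor, for example Bmpr1a, phosphorylates Smad1 and Smad5, which enter the nucleus with Smad4 and switch on target genes, among them the Id genes. Id proteins lack a DNA-binding region and sequester bHLH transcription factors such as the E proteins. Smad6, Smad7 and the pseudoreceptor Bambi are themselves induced by the pathway and restrain it. In the early mouse embryo BMP4 from extraembryonic ectoderm acts on the epiblast with Wnt and Nodal signals when the primitive streak forms, and in embryonic stem cells grown in serum BMP-induced Id genes help to hold back differentiation.

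Values are FPKM, fragment counts scaled to the length of the transcript and the size of the library, and the table gives 1 per gene and group. The spread between libraries enters through the authors' own test alone. The standard error (SE) and 95% interval of a fold are those implied by its statistic, a gene was called when the deposited q-value was at most 0.05, and the depth of each library is unknown. Whether the libraries came from separate cultures is not stated, so that spread may be technical. Lef1 stood at 51.0 FPKM in plus_Dox and 7.56 FPKM in minus_Dox (log2 fold of 2.75 with an SE of 0.19; the q-value is printed as 0), per the authors' deposited table. Of all tested rows, 12.2% were called, 8.98% higher and 3.22% lower in plus_Dox. The median log2 fold over 12240 tested rows with at least 1 FPKM was 0.20 and not 0, and across 11596 of them the fold followed transcript GC content (Spearman's coefficient 0.65) and length (-0.47), with genes that share the same libraries as points. Each call in the lists below is therefore also given, or counted, after subtraction of that median (median-ratio scaling) and after removal of a smooth trend on GC content and length. After median-ratio scaling 9.56% of 17830 rows were called, and after trend removal 2.17% of 16658 rows.

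Of the 10 genes, 4 were called higher, 1 lower and 5 did not pass. The genes that rose were Bmp7, Id3, Smad6 and Smad7, and the gene that fell was Bmpr1a. That share, 50% of the 10, stands beside 12.2% of all tested rows, and the median log2 fold of the 10 was 0.41, beside 0.20 over all tested rows. Median-ratio scaling left 2 called higher, Bmp7 and Id3, beside 3.47% of all rows, and 2 called lower, Bmpr1a and Id2, beside 6.1%. Trend removal brought the median of the 10 to 0.11 and left 1 called higher, Bmp7, beside 1.21% of all rows, and 0 called lower, beside 0.954%. The folds were modest: Bmp7 alone passed 2-fold.

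The promoters of 4 of these genes are shown because their deposited values differed in direction. Id3 and Smad6 were called higher and Bmpr1a lower. Id2, a close relative of Id3, was not called in the deposited values but was called lower after median-ratio scaling. Smad6 did not pass after that scaling (q = 0.21), and none of the 4 passed after trend removal. Each line holds the 250 bases before the transcription start, from RefSeq (GRCm38.p6), read 5′ to 3′ along the gene. Capitals mark GGCGCC, a GC-rich motif that Smad1 and Smad5 are known to bind.
Id3, chr4:136143572-136143821, plus strand: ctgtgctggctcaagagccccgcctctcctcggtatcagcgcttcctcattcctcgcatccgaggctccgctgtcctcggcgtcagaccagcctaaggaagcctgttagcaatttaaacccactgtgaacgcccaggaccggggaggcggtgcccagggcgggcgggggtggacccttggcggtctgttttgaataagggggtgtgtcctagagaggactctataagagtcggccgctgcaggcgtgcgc
Id2, chr12:25096093-25096342, minus strand: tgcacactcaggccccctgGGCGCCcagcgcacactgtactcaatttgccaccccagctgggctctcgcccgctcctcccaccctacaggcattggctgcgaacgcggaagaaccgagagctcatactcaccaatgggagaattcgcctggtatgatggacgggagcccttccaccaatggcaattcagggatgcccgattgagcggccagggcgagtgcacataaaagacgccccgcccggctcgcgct
Smad6, chr9:64022060-64022309, minus strand: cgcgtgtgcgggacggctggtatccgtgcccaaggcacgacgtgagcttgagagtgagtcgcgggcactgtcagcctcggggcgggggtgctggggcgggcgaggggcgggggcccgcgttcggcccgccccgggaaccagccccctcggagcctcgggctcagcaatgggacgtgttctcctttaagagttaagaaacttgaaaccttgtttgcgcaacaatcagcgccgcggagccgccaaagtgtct
Bmpr1a, chr14:34502547-34502796, minus strand: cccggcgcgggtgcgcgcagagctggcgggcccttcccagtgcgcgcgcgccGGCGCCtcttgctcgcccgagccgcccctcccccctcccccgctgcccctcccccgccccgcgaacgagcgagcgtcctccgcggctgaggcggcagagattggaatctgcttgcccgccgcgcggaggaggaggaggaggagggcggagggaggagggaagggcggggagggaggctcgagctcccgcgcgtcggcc
Promoter windows were searched for 5 of the 10 genes, these 4 and Bmp4. No entry was used for Bmp2, Bmp7 and Id1, and Bambi and Smad7 were left out of the search. The motif counts below therefore say nothing about the promoters of those genes, Smad7 among them. GGCGCC, a palindrome searched on both strands, occurred in the Id2 promoter, 231 to 226 bases before the start, and in the Bmpr1a promoter, 198 to 193 bases before it. It occurred in neither the Id3 nor the Smad6 nor the Bmp4 window, and in 9.59% of 32851 promoter windows of the same length. The core of the Tcf/Lef motif, searched on both strands as CTTTG followed by a pair of letters that are each A or T, was found in 0 of the 5 windows and in 14.8% of all windows. GTCTAGAC, the palindrome bound by Smad3 and Smad4, was found in 0 of the 5 and in 0.167% of all windows. The windows of these 5 genes were 62.8 to 78.8% GC, above the median of 52.4% over all windows. These motifs were chosen after the values were seen, and a match is a description of the letters.

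Among the ligands, Bmp7, the one with the least RNA, was the one that rose. The authors' deposited table lists Bmp7 at 0.680 FPKM in plus_Dox and 0.232 FPKM in minus_Dox, a 2.93-fold difference with an interval of 1.99 to 4.31 (log2 fold 1.55, SE 0.28, q = 5.2e-06). Both levels are under 1 FPKM, within the lowest 28.9% of tested rows in plus_Dox and the lowest 18.3% in minus_Dox, so the fold rests on little RNA. It was the call that held under both corrections, at a log2 fold of 1.35 after median-ratio scaling (q = 0.00011) and 1.22 after trend removal (q = 0.0020). The trend was fitted without rows under 1 FPKM, so Bmp7 took no part in that fit. On the log2(FPKM + 1) scale, which shrinks low genes, the difference was 0.45. Its row lies on chromosome 2, bases 172693513 to 172765822 of mm9, which is the build that the processing notes of the submitters give.

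Bmp4, the ligand of the extraembryonic ectoderm, stood at 2.08 FPKM in plus_Dox and 1.55 FPKM in minus_Dox in the authors' deposited table. That table gives a fold of 1.34 with an interval of 0.896 to 1.99 (log2 fold 0.42, SE 0.29, q = 0.44), and the interval takes in both a decrease and an increase. The Bmp4 row (chromosome 14, 46999089 to 47010344) shares its span with those of the predicted genes Gm15217, at 0.105 FPKM in plus_Dox and listed at 0 in minus_Dox, and Gm15222, at 0.0749 FPKM in plus_Dox and 0.0102 FPKM in minus_Dox. Bmp2, made in the embryo by visceral endoderm and mesoderm among others, was at 1.56 FPKM in plus_Dox and 1.52 FPKM in minus_Dox in the authors' deposited table (1.03-fold, interval 0.755 to 1.39, q = 0.998). Bmp2 and Bmp4 RNA were nearly equal in minus_Dox, at a ratio of 1.02 for Bmp4 over Bmp2, while in plus_Dox the ratio was 1.33. Bmp4 RNA exceeded Bmp7 RNA 3.05-fold in plus_Dox and 6.70-fold in minus_Dox. The 3 ligands summed to 4.31 FPKM in plus_Dox and 3.30 FPKM in minus_Dox. The table gives no spread for a single group, so the order of levels within a group carries no error.

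**Figure D1:**
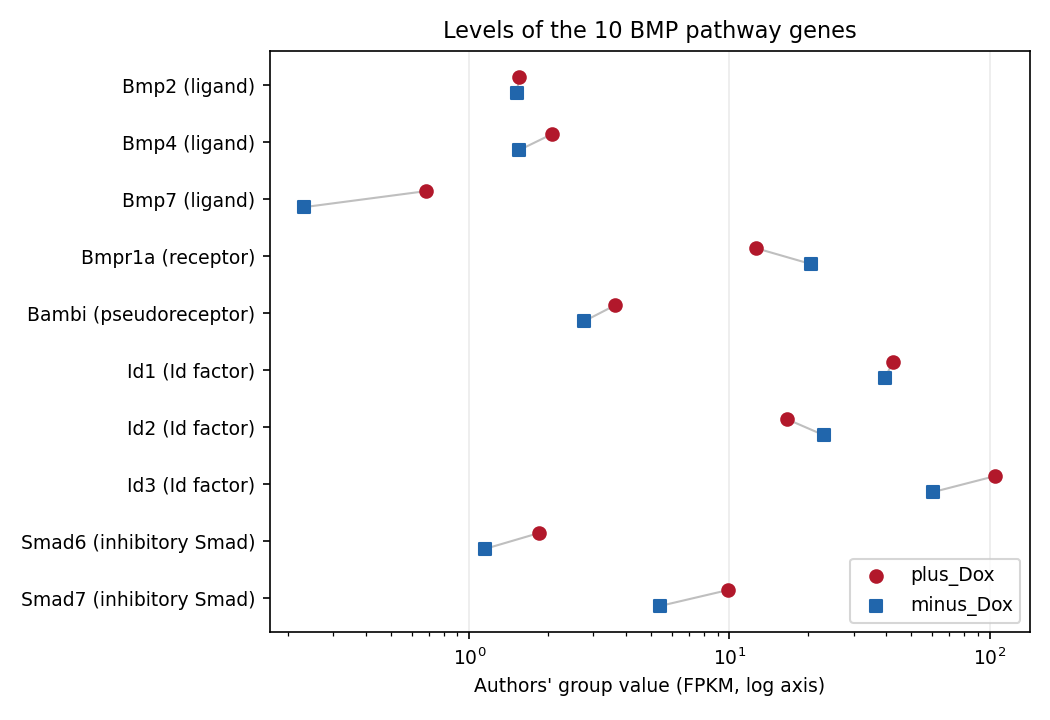
Levels of the 10 genes, 1 row per gene, as the authors' FPKM value for plus_Dox (red circles, upper) and minus_Dox (blue squares, lower) on a log axis, with no error bars because the table holds 1 value per group. Id3 is the highest (105.2 FPKM in plus_Dox and 60.7 FPKM in minus_Dox) and Bmp7 the lowest (0.680 FPKM in plus_Dox and 0.232 FPKM in minus_Dox).

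Bmpr1a, the type I receptor that carries BMP2 and BMP4 signals in the epiblast, was the 1 gene of the 10 called lower. The authors' deposited table gives it 12.6 FPKM in plus_Dox and 20.6 FPKM in minus_Dox, a fold of 0.613 with an interval of 0.483 to 0.778 (log2 fold -0.71, SE 0.18, q = 0.0016). It was lower by 0.91 log2 units after median-ratio scaling (log2 fold -0.91, q = 1.9e-05). After trend removal its log2 fold was -0.29 and did not pass (q = 0.76): its transcript, at 41.3% GC and 5956 nt, lies among rows whose fitted trend was -0.41. The Bmpr1a row (chromosome 14, 35223920 to 35316527 in mm9) overlaps the row of the predicted gene Gm17110, which is listed at 0.146 FPKM in plus_Dox and 0.127 FPKM in minus_Dox.

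Bambi, which resembles a type I receptor without a kinase and blocks signalling by BMP and TGF-beta receptors, was at 3.64 FPKM in plus_Dox and 2.77 FPKM in minus_Dox in the authors' deposited table. Its fold of 1.32 in the authors' deposited table (interval 1.02 to 1.70, log2 fold 0.40, SE 0.19) had an unadjusted p of 0.035 and did not pass (q = 0.17). Bambi was the only member whose log2 fold moved further from 0 in the positive direction when the trend was removed, to 0.61 (q = 0.054). A variant of that fit, tried after the data were seen, with GC content and length held at their outermost percentiles, put it just inside the threshold (0.61, q = 0.047), so its call depends on the fit. Its transcript is 44.0% GC and 5074 nt long.

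The Id genes differed in direction. Id3, the most abundant of the 10, rose to 105.2 FPKM in plus_Dox, against 60.7 FPKM in minus_Dox, in the authors' deposited table (1.73-fold, interval 1.35 to 2.22, log2 fold 0.79, SE 0.18, q = 0.00059). Id1 stood at 42.6 FPKM in plus_Dox and 39.6 FPKM in minus_Dox in the authors' deposited table (1.08-fold, interval 0.848 to 1.37, q = 0.84). Id2 stood at 16.6 FPKM in plus_Dox and 23.0 FPKM in minus_Dox in the authors' deposited table, a fold of 0.721 with an interval of 0.562 to 0.926 (log2 fold -0.47, SE 0.18, q = 0.074). The interval of Id3 thus lay wholly above that of Id2, and that of Id1 overlapped both by their ends. Because Id3 was higher and Id2 lower in value, Id3 made up 64.0% of the summed Id1, Id2 and Id3 FPKM in plus_Dox and 49.3% in minus_Dox. Id2 made up 10.1% of that sum in plus_Dox and 18.7% in minus_Dox, and the sum itself was 164 FPKM in plus_Dox and 123 FPKM in minus_Dox.

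The directions of the Id genes depended on the correction for Id1 and the calls for Id2 and Id3. After median-ratio scaling Id3 was still called higher (log2 fold 0.59, q = 0.019), Id2 was called lower (-0.67, q = 0.0055) and Id1 was at -0.094 (q = 0.92). After trend removal no Id gene passed: Id3 was at 0.22 (q = 1.00), Id1 at -0.45 (q = 0.23) and Id2 at -0.56 (q = 0.089). The transcripts of Id3 and Id1 are short and GC-rich (55.6% GC and 1278 nt, 54.7% GC and 1160 nt), and that of Id2 is 45.1% GC and 1969 nt. The difference in log2 fold between Id3 and Id2 was 1.26 in the deposited values. The genes lie apart in mm9, Id3 on chromosome 4 (135699412 to 135701670), Id1 on chromosome 2 (152561987 to 152563146) and Id2 on chromosome 12 (25778666 to 25780957), and no other row of the table overlaps theirs.

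**Figure D2:**
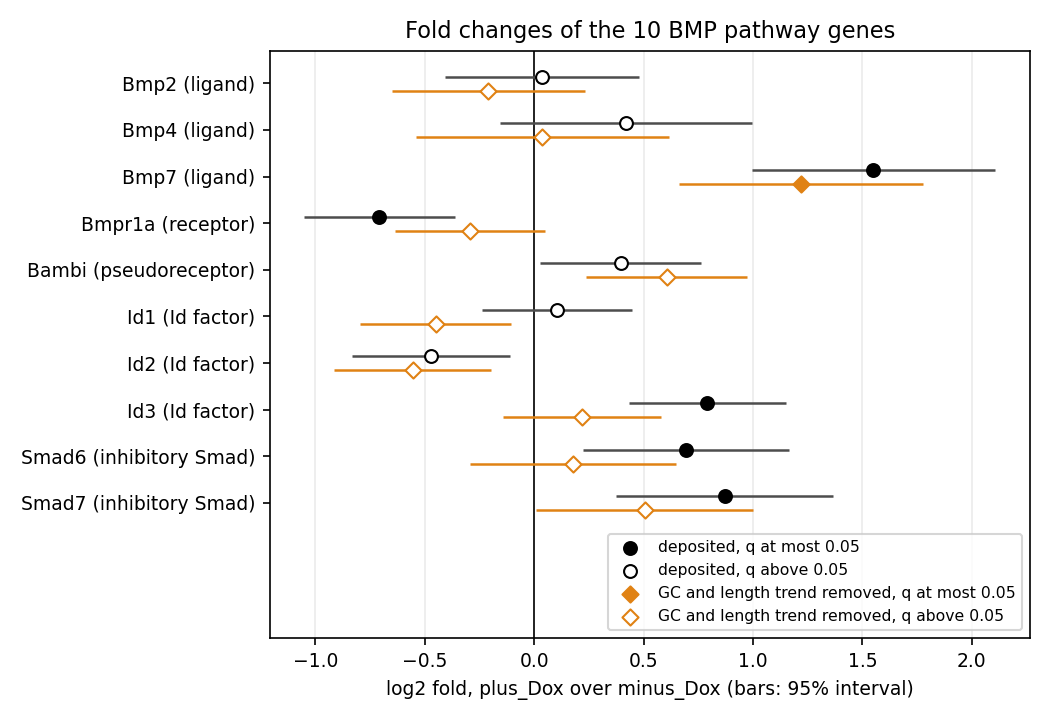
Log2 fold of plus_Dox over minus_Dox for each gene, with 95% intervals from the SE of the authors' test; black circles are deposited values and orange diamonds values after removal of the GC and length trend, filled where q is at most 0.05. With the trend removed Bmp7 (1.22) is the filled diamond, and Bambi (0.61) has the next highest value.

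The inhibitory Smads rose by like amounts. Smad7, which blocks both BMP and TGF-beta/Nodal receptors, was at 9.88 FPKM in plus_Dox and 5.40 FPKM in minus_Dox in the authors' deposited table (1.83-fold, interval 1.30 to 2.58, log2 fold 0.87, SE 0.25, q = 0.0090). Smad6, which acts mainly on BMP signals, was at 1.85 FPKM in plus_Dox and 1.14 FPKM in minus_Dox in the authors' deposited table (1.62-fold, interval 1.17 to 2.24, log2 fold 0.69, SE 0.24, q = 0.035). Smad7 RNA exceeded Smad6 RNA 5.34-fold in plus_Dox and 4.72-fold in minus_Dox. Neither call held under the corrections: after median-ratio scaling Smad7 was at 0.67 (q = 0.072) and Smad6 at 0.49 (q = 0.21), and after trend removal Smad7 was at 0.50 (q = 0.54) and Smad6 at 0.18 (q = 1.00). Their transcripts are the most GC-rich of the 10, at 56.9% for Smad7 and 60.8% for Smad6. The Smad6 row lies on chromosome 9 (63800883 to 63869866 in mm9) and overlaps no other row, nor does that of Smad7.

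Transcript composition ran alongside the direction of the calls. The 4 genes called higher had transcripts of 55.3 to 60.8% GC, Bmpr1a had 41.3%, and the median of tested rows with at least 1 FPKM was 50.3%. The trend was fitted to tested rows with at least 1 FPKM. For Id3, Smad6 and Smad7 its value at their GC content and length was 0.57, 0.52 and 0.37 log2 units. Their deposited log2 folds were 0.79, 0.69 and 0.87. For Bmp7 the trend was 0.33, against a deposited log2 fold of 1.55. Id1, with a fitted trend of 0.56 and a deposited log2 fold of 0.11, lay below the rows of like composition.

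**Figure D3:**
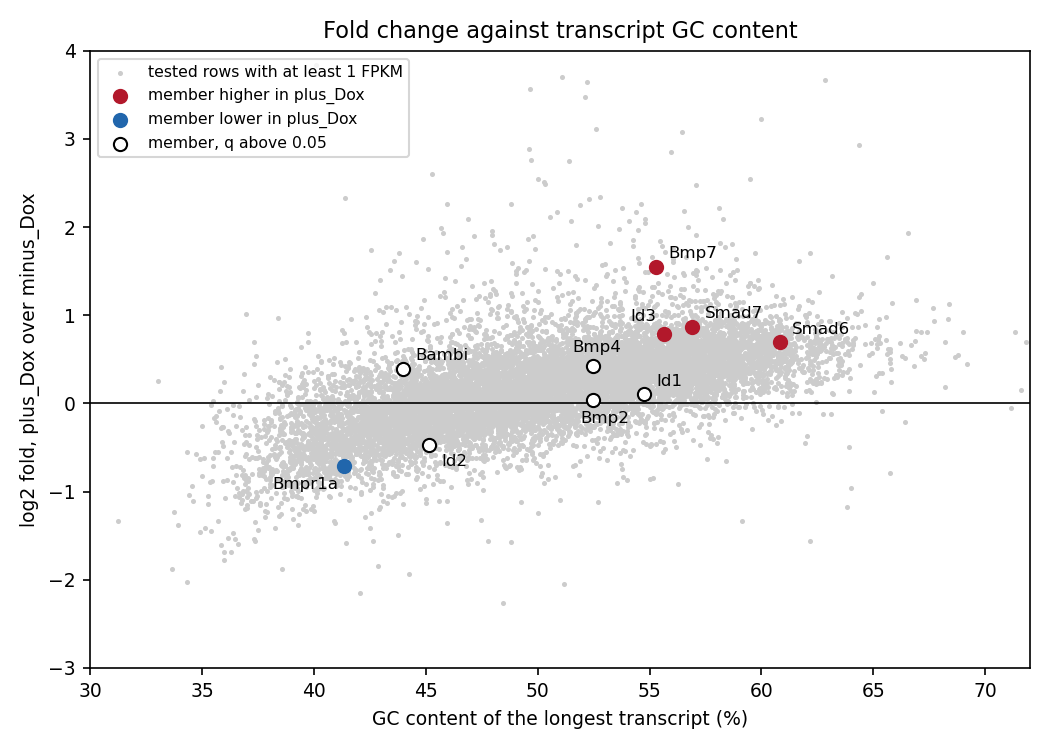
Log2 fold of plus_Dox over minus_Dox against GC content of the longest transcript for tested rows with at least 1 FPKM (grey, 11584 rows within the axes) and the 10 genes (red called higher, blue called lower, open not called; Bmp7, under 1 FPKM, is drawn as well). Fold and GC content rise together in the grey rows, and Bmp7 and Bambi sit at the upper side of the cloud while Id1 and Id2 sit at its lower side.

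Other genes of the pathway were called in both directions, and the balance depended on the correction. Of 83 further ligand, receptor, Smad, antagonist, regulator, target and partner genes with a row, 73 were tested, 6 were called higher and 6 lower, and 61 did not pass. That is 16.4% called, beside 12.2% of all tested rows (8.98% higher and 3.22% lower), with a median log2 fold of 0.041. After median-ratio scaling 2 were called higher, Fst and Pmepa1, and 9 lower, beside 3.47% and 6.1% of all rows. The 9 were the 6 called lower in the deposited values and also Tcf12 (-0.70), Twsg1 (-0.62) and Rnf111 (-0.60), of which Twsg1 and Rnf111 are named after their values were seen. Trend removal left 4 called higher and 2 lower among the 70 with a trend-removed value, beside 1.21% and 0.954% of all rows.

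No other BMP or GDF ligand gene passed: 9 of 15 were tested and 0 were called, beside 12.2% of all tested rows. Of the 15, 12 were under 1 FPKM in both groups. The highest, Gdf1, a Nodal-related ligand whose row is joined with Lass1, was at 18.4 FPKM in plus_Dox and 10.4 FPKM in minus_Dox in the authors' deposited table (q = 0.20). Among 10 tested receptor and co-receptor genes, 2 were called higher and 2 lower. Falls, per the authors' deposited table, were those of the type II receptor gene Bmpr2 (0.876 FPKM in plus_Dox and 1.63 FPKM in minus_Dox, log2 fold -0.90, SE 0.25, q = 0.0048) and the type I receptor gene Bmpr1b (0.550 FPKM in plus_Dox and 1.02 FPKM in minus_Dox, log2 fold -0.89, SE 0.30, q = 0.030). Both moved the same way as Bmpr1a, and like Bmpr1a both have transcripts of low GC content (41.0% and 42.2%) and did not pass after trend removal (-0.41 and -0.55), though after median-ratio scaling both passed (-1.10 and -1.09). In the authors' deposited table the rises were in the BMP co-receptor genes Rgmb (3.96 FPKM in plus_Dox and 2.23 FPKM in minus_Dox, log2 fold 0.83, SE 0.23, q = 0.0061) and Rgma (2.36 FPKM in plus_Dox and 1.40 FPKM in minus_Dox, log2 fold 0.75, SE 0.24, q = 0.021). Neither passed after median-ratio scaling, Rgmb at 0.63 (q = 0.062) and Rgma at 0.55 (q = 0.14). After trend removal Rgmb passed at 0.90 (q = 0.0085) and Rgma, at 0.27, did not. The highest receptor gene that did not pass was Eng, whose row is joined with Ak1, at 18.1 FPKM in plus_Dox and 14.2 FPKM in minus_Dox.

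The Smads that carry the signal did not pass. In the authors' deposited table Smad4, the common partner, was at 36.5 FPKM in plus_Dox and 31.6 FPKM in minus_Dox (1.15-fold, interval 0.797 to 1.67, q = 0.77). Smad1 was at 6.90 and Smad5 at 7.46 FPKM in plus_Dox, against 6.35 and 8.82 FPKM in minus_Dox, in the authors' deposited table (q = 0.84 for Smad1 and 0.58 for Smad5); they were named after their values were seen. Of the 4 genes of this list with a row, these 3 were tested, and 12.2% of all tested rows were called.

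Secreted antagonists and modulators changed in both directions, with 2 rises and 2 falls among 17 tested, 23.5% of those tested beside 12.2% of all tested rows. Fst, or follistatin, which binds activin and some BMPs, had the largest fold of these lists among calls: 10.1 FPKM in plus_Dox and 2.93 FPKM in minus_Dox in the authors' deposited table (3.43-fold, interval 2.54 to 4.62, q = 3.5e-13). Nog, the BMP antagonist noggin, was at 0.290 FPKM in plus_Dox and 0.130 FPKM in minus_Dox in the authors' deposited table (2.23-fold, interval 1.26 to 3.95, q = 0.049), close to the threshold and at a very low level. Falls, per the authors' deposited table, were those of Cer1, which binds BMP and Nodal ligands (5.26 FPKM in plus_Dox and 8.02 FPKM in minus_Dox, log2 fold -0.61, SE 0.21, q = 0.031), and the chordin relative Chrdl1 (0.558 FPKM in plus_Dox and 1.07 FPKM in minus_Dox, log2 fold -0.94, SE 0.31, q = 0.028). After median-ratio scaling Fst (1.58), Cer1 (-0.81) and Chrdl1 (-1.14) passed and Nog (0.96, q = 0.15) did not. After trend removal Fst (1.71) and Cer1 (-0.82, q = 0.0066) passed, and Nog (0.61) and Chrdl1 (-0.60) did not. The highest gene of this list that did not pass was Fstl1, at 15.2 FPKM in plus_Dox and 14.9 FPKM in minus_Dox.

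Among 13 tested intracellular regulators of Smads, Pmepa1 rose and Skil and Lemd3 fell, 23.1% of those tested beside 12.2% of all tested rows. Pmepa1, a membrane protein that binds receptor-activated Smads and is induced by TGF-beta, was at 13.3 FPKM in plus_Dox and 5.49 FPKM in minus_Dox in the authors' deposited table (2.42-fold, interval 1.70 to 3.44, q = 5.8e-05). Lemd3, an inner nuclear membrane protein that binds Smads and dampens BMP and TGF-beta signals, was at 3.78 FPKM in plus_Dox and 6.14 FPKM in minus_Dox (authors' deposited table; log2 fold -0.70, SE 0.19, q = 0.0032). Skil, the corepressor SnoN, was at 21.8 FPKM in plus_Dox and 34.3 FPKM in minus_Dox (authors' deposited table; log2 fold -0.65, SE 0.16, q = 0.0018). All 3 also passed after median-ratio scaling, Pmepa1 at 1.08, Lemd3 at -0.90 and Skil at -0.85. With the trend removed Pmepa1 (1.02, q = 0.0068) and Lemd3 (-0.71, q = 0.0098) passed and Skil (-0.19) did not, while Zeb2, named after its value was seen, passed at 1.42 (q = 0.0038). Ppm1a, a phosphatase reported to act on Smads, was the highest that did not pass, at 45.2 FPKM in plus_Dox and 46.6 FPKM in minus_Dox.

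None of 18 other BMP response genes passed in the authors' deposited table, beside 12.2% of all tested rows, and 15 of them were under 1 FPKM in both groups. The list holds Id4, Msx1, Msx2, Gata2, Gata3, Hand1, Cdx2 and Tfap2a among others, and its median log2 fold was 0.11. Its most abundant member, Hey1, was at 3.12 FPKM in plus_Dox and 3.04 FPKM in minus_Dox in the authors' deposited table (1.03-fold, interval 0.765 to 1.38). Of the bHLH genes whose products Id proteins bind, Tcf3, taken by its symbol as the E2A gene, rose to 88.2 FPKM in plus_Dox, against 59.4 FPKM in minus_Dox, in the authors' deposited table (1.49-fold, interval 1.14 to 1.93, q = 0.031). That identity rests on the symbol: the annotation is not given, and the position of the row was not checked. The transcript matched by symbol is 61.0% GC. Tcf3 did not pass at 0.37 after median-ratio scaling (q = 0.27) or at 0.052 after trend removal. Tcf12 was at 11.5 FPKM in plus_Dox and 16.3 FPKM in minus_Dox in the authors' deposited table (log2 fold -0.50, q = 0.19).

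**Figure D4:**
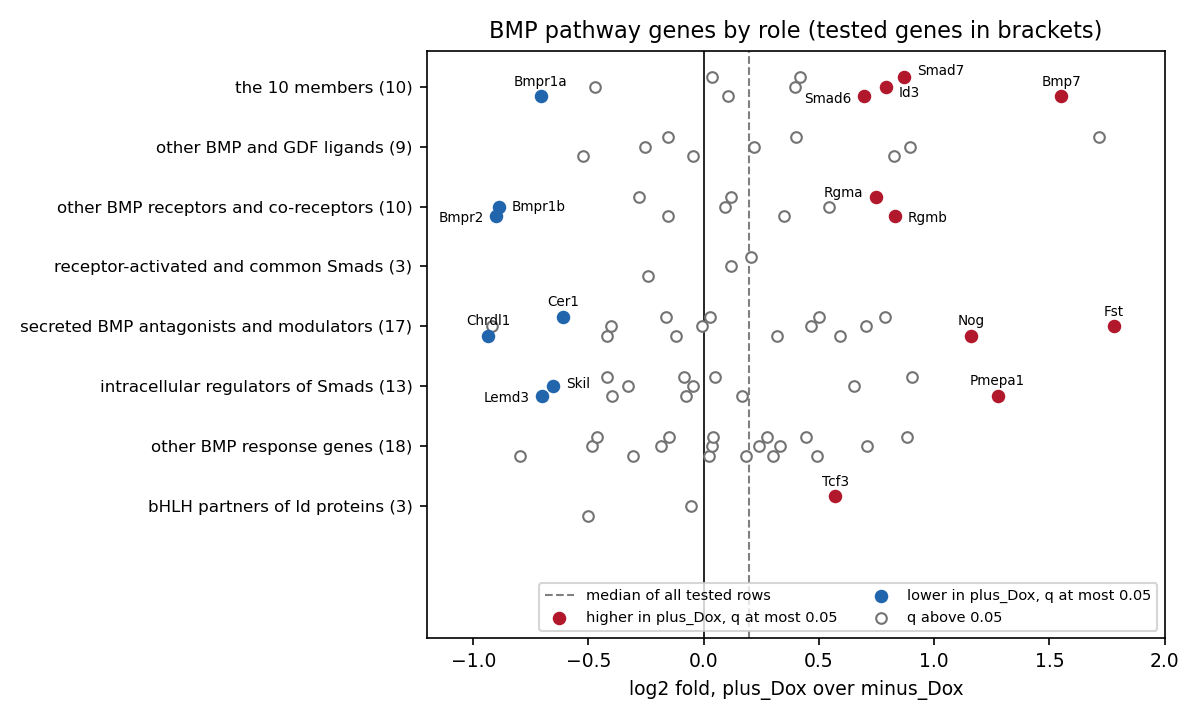
Log2 fold of plus_Dox over minus_Dox for each tested gene of the BMP pathway, 1 row of points per role (vertical spread within a row is for legibility), with called genes filled and named and the median of all tested rows dashed at 0.20. Called genes lie on both sides of 0 among receptors, antagonists and regulators, and no gene is filled among the other ligands, the signal-carrying Smads or the other response genes.

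Embryoid bodies hold several cell types, and in a bulk sample fewer cells of a type and less RNA per cell cannot be told apart. Visceral endoderm, a source of Bmp2, showed 3 rises in 14 tested markers. Of these 14, 8 had a log2 fold above 0 and 6 below 0, beside 65.1% of all tested rows above 0. Its 15 markers summed to 1339 FPKM in plus_Dox and 869 FPKM in minus_Dox. Most of that sum was Apoe (1057 FPKM in plus_Dox and 590 FPKM in minus_Dox), so the sum mainly follows that 1 gene. The rises were those of Apoe, Amn and Sox17, 21.4% of the list beside 8.98% of all tested rows. After median-ratio scaling Apoe and Amn were called higher and Cubn lower (-0.61), and after trend removal no marker was called higher and Gata6 was called lower (-0.73, q = 0.023). Trophoblast and extraembryonic ectoderm, a source of Bmp4, showed 2 rises in 8 tested markers (Krt8 and Krt18), 25.0% of the list. Both also passed after median-ratio scaling (0.62 and 0.56), and neither after trend removal (0.27 and 0.18). Its more restricted markers were low: Prl3d1 is listed at 0 in both groups, Elf5 was at 0.0344 FPKM in plus_Dox and 0.0236 FPKM in minus_Dox, and 9 of the 11 were under 1 FPKM in both. Of 10 embryonic stem cell markers, all tested, 4 were called higher and 2 lower in the deposited values, 60.0% beside 12.2% of all tested rows. Under each correction 2 were called higher, Nanog and Tdgf1, and 2 lower, Sox2 and Fgf4. Pou5f1, at 1510 FPKM in plus_Dox and 820 FPKM in minus_Dox, did not pass in the authors' deposited table (q = 0.055). Embryonic fibroblast markers, for the feeder layer, showed no call in 14 tested, beside 12.2% of all tested rows. They summed to 30.2 FPKM in plus_Dox and 23.1 FPKM in minus_Dox, mostly from Thy1 (16.6 FPKM in plus_Dox and 11.9 FPKM in minus_Dox). Of the 14, 11 had a log2 fold above 0 and 3 below 0, beside 65.1% of all tested rows above 0. The part of these cell types in the values of the 10 genes was not tested.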

How the data were processed

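RNA was sequenced from 6 libraries grouped by their titles, and the 10 genes were read from 1 deposited table with Cuffdiff's gene-level columns. Per the submitters' processing notes the tools were Cuffdiff, Cufflinks 2.0.2, TopHat2 2.0.8, Picard and Bowtie, with build mm9; the annotation, in the sources used here, is not given. Per the file headers the authors computed 1 FPKM per gene and group, a log2 fold of plus_Dox over minus_Dox, a test statistic (a score without fixed range), and a p-value and q-value. Per the labels, TruSeq libraries were made from mRNA captured on oligo-dT beads; no strand-marking step is named, so overlapping antisense reads cannot be told apart. With 0 columns for single libraries, no model was fitted to libraries, and no SD, depth or counting interval can be given. Deposited p-values were checked against the normal tail of the statistic, and q-values against Benjamini-Hochberg adjustment over all tested rows. The SE is the size of the log2 fold over that of the statistic. Row starts count from 0 (the span equals the annotated gene length in 11721 single-gene rows, against 318 if they counted from 1) and are printed from 1.

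For the alternatives, p- and q-values were recomputed over all rows from the same SE. Median-ratio scaling took the median log2 fold of all tested rows reaching 1 FPKM off each value. The trend came from a least-squares fit, with 6 knots per cubic spline, on GC content and log2 length of the longest basic transcript (GENCODE vM21, 92.0% of tested rows), and was tested on simulated data. The simulated noise was capped at 1 log2 unit after a first version without the cap made more false calls than the adjustment allows. Some deposited SEs are far larger than that cap. False calls numbered 8 with the cap and 35 without it. Under the cap, rows with large SEs got less noise than the SE used to test them, so the capped run cannot show how the fit behaves there. Python 3.11.15, numpy 2.4.6, pandas 2.3.3, scipy 1.17.1 and matplotlib 3.10.9 were used. The members, gene lists and tests were chosen with earlier results of these data known. The named genes were the 10 members, Lef1, from each list every call up to 5 and its most abundant gene that did not pass; others are said to be named after their values were seen, or are cell type markers.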

Additional observations from a re-analysis of the deposited data

How the results depend on the processing

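The log2 folds of Lef1 and of 8 of the 10 genes kept their sign under both pseudocounts, median-ratio scaling and both trend fits; Bmp2 and Id1 were the exceptions. Among the 10 genes, the number called lower was 2 at a q-value threshold of 0.1, and a minimum of 2-fold left 1 call, 1 higher and 0 lower. A minimum of 5 FPKM in the higher group left 3 calls, 2 of them higher. Median-ratio scaling gave 2 higher and 2 lower, and trend removal 1 call, 1 higher and 0 lower. A second trend fit, tried after the data were seen because the first self-test failed, held GC content and length at the 1st and 99th percentile; it gave 2 calls, 2 higher and 0 lower, the second being Bambi (q = 0.047), and the first fit was kept as planned. Bmp2 turned to -0.16 under scaling and -0.21 under both trend fits, and Id1 to -0.094 under scaling and -0.45 under both trend fits; none of these values passed. For the 73 other tested pathway genes (12 calls, 6 higher and 6 lower), a threshold of 0.01 left 6 calls, 3 higher and 3 lower, and 2-fold left 3 calls, 3 higher and 0 lower. A minimum of 5 FPKM left 6 calls, 3 higher and 3 lower, scaling 2 higher and 9 lower, and both trend fits 6 calls, 2 of them lower. Bmp7 is lost under a minimum of 1 FPKM in the higher group, which left 4 calls. At these other thresholds of q-value, fold and FPKM the share of all tested rows was not counted. The counts there therefore have no background to be set against. Under a pseudocount of 1 its log2 difference was 0.45 and that of Smad6 0.41. No paired analysis was possible because the table holds group values only, and for the same reason no library could be left out. The depth behind the low values of Bmp7 and Nog is unknown.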
